A study of Lotus japonicus with 24 samples.

Results

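Nitrate and nitrite reductase catalyse the first steps by which a plant turns nitrate into ammonium. Nitrate reductase works in the cytosol, takes electrons from NADH and carries a molybdenum cofactor, a heme and a flavin. Nitrite reductase works in plastids, takes electrons from reduced ferredoxin and carries siroheme and an iron-sulfur cluster. The genes of both enzymes are known in many plants to be transcribed more when nitrate is supplied. The genes described here were chosen by their description, as every gene of the deposited table described as a nitrate reductase or a nitrite reductase. There were 2 such genes among 30243, 1 for each enzyme, called *NR* and *NiR* below. No measured value entered this choice.

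*NR* is LotjaGi1g1v0152000, with nitrate reductase [NADH] of *Lotus japonicus* as its closest described protein. In the LjG1.1 assembly it lies on chromosome 1 from 26164087 to 26169107 on the plus strand. *NiR* is LotjaGi4g1v0074400, with chloroplastic ferredoxin-nitrite reductase of birch (*Betula pendula*) as its closest described protein. It lies on chromosome 4 from 9504697 to 9508493 on the minus strand. The gene lengths used for scaling are 3252 bases of *NR* and 2391 bases of *NiR*, shorter than the spans of 5021 and 3797 bases, and the table does not list exons.

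RNAseq was carried out on shoots and roots of the *Ljasn1-2* mutant and of WT plants (ecotype Gifu), each grown with rhizobia and no combined nitrogen (symbiotic, S) or with mineral nitrogen and no rhizobia (non-symbiotic, NS). The 8 groups were *Ljasn1-2* and WT shoots under S, *Ljasn1-2* and WT shoots under NS, *Ljasn1-2* and WT roots under S, and *Ljasn1-2* and WT roots under NS, with 3 libraries each. *Ljasn1-2* is 1 line, homozygous for a LORE1 retrotransposon in the asparagine synthetase gene *LjASN1* and selected, per the study's methods, to be free of the other insertions of its parent. S plants were nodulated by *Mesorhizobium loti*, so that S roots are nodulated roots, and NS plants received ammonium nitrate and, per the methods, potassium nitrate as well, in place of the potassium chloride of S plants. Each replicate was, per the methods, an independent pool of plants from more than 1 pot. The series' description gives 40 days of growth and a harvest 4 h into the light period for all plants, whereas the methods give an earlier harvest for NS than for S plants, at the same growth stage, and a later hour. Supply of nitrate, nodulation and age at harvest therefore cannot be told apart between S and NS plants.

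The libraries held 37.5 to 66.8 M reads on genes (M, 1e6 reads; median 42.5 M). Values are FPKM, fragments per kilobase of gene and per 1e6 fragments, after the decimal points that the deposited table had lost were restored. *NR* rested on 1877 to 71517 reads per library and *NiR* on 1019 to 76002, so counting error was small beside the spread between replicates. Replicates of a group correlated with r of 0.975 to 0.997 over all genes on the log2(FPKM + 1) scale and 0 pairs of libraries held identical values. This agreement is partly built in, since agreement between replicates was used to place decimal points: 16119 values were placed 1 decimal place and 190 more than 1 place above their smallest solution, among them 6 of the 48 values of *NR* and *NiR*. The labels were checked with *LjASN1*, which averaged 4.77 to 78.9 FPKM in the 4 *Ljasn1-2* groups and 87.2 to 637 FPKM in the 4 WT groups and was lower in *Ljasn1-2* in all 4 comparisons (limma, adjusted p of 3.8e-07 to 0.048). The 17 genes described as chlorophyll a-b binding proteins summed to 24076 to 43847 FPKM in shoots and to 107 to 496 FPKM in roots. The 4 leghemoglobin genes, which mark infected nodule cells, summed to 6592 to 15018 FPKM in S roots, to at most 1.03 FPKM in NS roots and to at most 0.285 FPKM in shoots. In the roots, replicate 3 of every group had a lower sum of FPKM over all genes (331367 to 365058) than replicates 1 and 2 (404849 to 494790).

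Both genes were among the highly transcribed genes of NS plants and were far lower in S plants. In shoots under S, *NR* had 38.1, 34.0 and 28.0 FPKM in *Ljasn1-2* and 35.2, 38.3 and 39.3 FPKM in WT. Under NS, *NR* in shoots had 206, 232 and 213 FPKM in *Ljasn1-2* and 193, 244 and 185 FPKM in WT. In each genotype the highest S library stayed far below the lowest NS library. *NR* was thus 6.5 times lower in S than in NS shoots of *Ljasn1-2* and 5.51 times lower in WT, by the ratio of group means.

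*NiR* dropped further than *NR* in shoots. In shoots under S it had 15.004, 14.2 and 12.3 FPKM in *Ljasn1-2* and 14.3, 15.7 and 18.6 FPKM in WT. Under NS, *NiR* in shoots had 328, 375 and 312 FPKM in *Ljasn1-2* and 311, 381 and 277 FPKM in WT. The 3 S libraries of each genotype lay within a few FPKM of each other, far below every NS library. Group means were 24.4 times lower in S than in NS shoots of *Ljasn1-2* and 19.96 times lower in WT.

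In roots both genes changed by similar factors. *NR* had 14.6, 24.6 and 22.7 FPKM in S roots of *Ljasn1-2* and 31.8, 41.3 and 13.7 FPKM in S roots of WT. In NS roots *NR* had 324, 301 and 261 FPKM in *Ljasn1-2* and 265, 297 and 361 FPKM in WT. The S roots of WT were the most variable group for *NR*, with a coefficient of variation of 48.3%, and their lowest library was replicate 3. *NiR* had 41.0, 43.4 and 31.4 FPKM in S roots of *Ljasn1-2* and 39.1, 40.8 and 24.1 FPKM in S roots of WT. In NS roots *NiR* had 468, 408 and 272 FPKM in *Ljasn1-2* and 418, 409 and 355 FPKM in WT. Again no S library reached the range of NS libraries of its genotype. The group means of *NR* were 14.3 times lower in S than in NS roots of *Ljasn1-2* and 10.6 times lower in WT, and those of *NiR* were 9.90 times lower in *Ljasn1-2* and 11.4 times lower in WT.

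**Figure D1:**
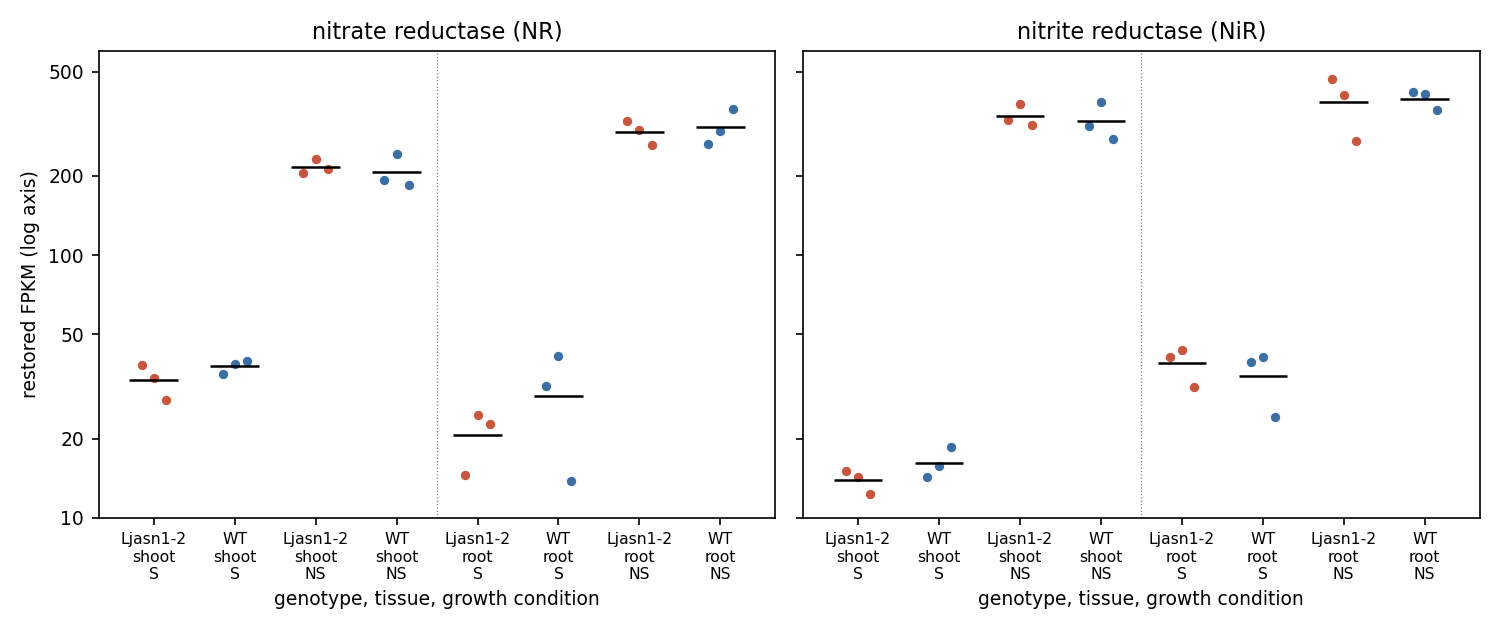
FPKM of *NR* (left) and *NiR* (right) in every library on a log axis, by genotype, tissue and growth condition. Red points are *Ljasn1-2* libraries, blue points WT libraries, in the order of replicates 1 to 3, and black lines are group means (n = 3). All S libraries lie below all NS libraries, and *NiR* reaches its lowest values, 12.3 to 18.6 FPKM, in S shoots.

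Tested with limma on log2(FPKM + 1) over all genes, both genes fell in S against NS plants in each of the 4 comparisons. The log2 fold change of *NR* in shoots was -2.67 ± 0.14 (SE) in *Ljasn1-2* (adjusted p = 6.8e-06) and -2.42 ± 0.14 in WT (adjusted p = 0.00015). *NiR* in shoots fell by 4.51 ± 0.13 in *Ljasn1-2* (adjusted p = 3.2e-07) and by 4.23 ± 0.16 in WT (adjusted p = 2.4e-05). The corresponding values in roots were -3.80 ± 0.23 in *Ljasn1-2* (adjusted p = 2.3e-05) and -3.49 ± 0.37 in WT (adjusted p = 0.00058) for *NR*. For *NiR* in roots they were -3.25 ± 0.26 in *Ljasn1-2* (adjusted p = 9.8e-05) and -3.50 ± 0.23 in WT (adjusted p = 4.8e-05). These calls stood in every alternative tried, and without any single library the adjusted p stayed at or below 0.0050.

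Against this, the share of all tested genes that changed between S and NS was 11.9% in shoots of *Ljasn1-2*, 6.18% in shoots of WT, 27.9% in roots of *Ljasn1-2* and 24.1% in roots of WT. The share that fell was 5.81%, 2.75%, 15.2% and 12.5% in the same order. With libraries scaled to equal totals the shares that fell were 9.22%, 3.83%, 19.1% and 14.7%, and falls made up 75.1%, 64.0%, 65.3% and 59.8% of the changes in place of 49.0%, 44.5%, 54.4% and 51.8%. Genes were ordered from the most negative log2 fold change on the log2(FPKM + 1) scale. *NiR* stood at place 2 of 16169 genes tested in shoots of *Ljasn1-2* and of 16125 in shoots of WT. *NR* stood at place 30 in shoots of *Ljasn1-2* and at place 21 in those of WT. In roots *NR* stood at place 8 and *NiR* at place 23 of 16537 in *Ljasn1-2*, and at places 10 and 8 of 16541 in WT. The single gene below *NiR* in shoots on this scale was LotjaGi3g1v0504500, described as non-symbiotic hemoglobin 1, with -4.65 in *Ljasn1-2* and -4.55 in WT. This gene was chosen after its values were seen. The scale narrows falls to very low values, so these places are not an order by ratio of means. LotjaGi1g1v0654700 went from 11.3 FPKM in NS to 0.285 FPKM in S shoots of WT, a larger factor than that of *NiR*, and stood at place 8.

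By mean FPKM over all 30243 genes, *NiR* ranked 172 in NS shoots of *Ljasn1-2* and 206 in those of WT, and 102 and 100 in NS roots of the same genotypes. In S plants it ranked 5453 and 4854 in shoots and 2034 and 2288 in roots. *NR* ranked 2514 and 2265 in S shoots and 3716 and 2769 in S roots of *Ljasn1-2* and WT, against 325 and 357 in NS shoots and 138 and 133 in NS roots. Both transcripts stayed well detected in S plants, with at least 1019 reads in every library.

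S roots carry nodules, and the leghemoglobin sum rose with the S condition as given above. Root libraries were also scaled to equal totals from which the leghemoglobin genes were left out. *NR* then gave -3.95 in *Ljasn1-2* and -3.60 in WT, and *NiR* gave -3.40 and -3.62. With these genes kept in the equal totals, *NR* gave -3.99 in *Ljasn1-2* and -3.64 in WT, and *NiR* gave -3.44 and -3.66. The part of nodule tissue in the values of S roots was not tested. In bulk tissue, fewer cells that use a gene and less of its RNA per cell cannot be told apart.

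No difference between *Ljasn1-2* and WT was found for either gene. In shoots under S, *NR* averaged 33.4 ± 5.1 FPKM in *Ljasn1-2* and 37.6 ± 2.2 FPKM in WT (SD, n = 3 each), a log2 fold change of -0.18 with a 95% interval of -0.46 to 0.10. *NiR* averaged 13.9 ± 1.4 FPKM in *Ljasn1-2* and 16.2 ± 2.2 FPKM in WT shoots under S, at -0.21 (-0.48 to 0.07). Under NS, *NR* averaged 217 ± 14 FPKM in *Ljasn1-2* shoots and 207 ± 32 FPKM in WT shoots, at 0.08 (-0.29 to 0.44). For *NiR* the NS shoots averaged 338 ± 33 FPKM in *Ljasn1-2* and 323 ± 53 FPKM in WT, at 0.07 (-0.33 to 0.47). In all these pairs the ranges of the genotypes overlapped.

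Roots left a wider margin for a difference between the genotypes. *NR* averaged 20.6 ± 5.3 FPKM in S roots of *Ljasn1-2* and 28.9 ± 13.98 FPKM in those of WT, at -0.37 with an interval of -1.29 to 0.55. *NiR* averaged 38.6 ± 6.4 FPKM in S roots of *Ljasn1-2* and 34.6 ± 9.2 FPKM in those of WT, at 0.18 (-0.40 to 0.75). In NS roots *NR* averaged 295 ± 31 FPKM in *Ljasn1-2* and 308 ± 48 FPKM in WT, at -0.05 (-0.52 to 0.41). *NiR* averaged 382 ± 101 FPKM in NS roots of *Ljasn1-2* and 394 ± 34 FPKM in those of WT, at -0.08 (-0.66 to 0.50). The intervals were wider in roots than in shoots.

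Adjusted p-values of the genotype comparisons lay between 0.88 and 1.00 for both genes. Among all genes tested, 0.433% passed between the genotypes in NS shoots, 0.106% in S shoots, 0.0433% in NS roots and 0.0308% in S roots. The study, using DESeq2, reported more differing genes in each of these comparisons. *LjASN1* itself passed in roots only at an adjusted p of 0.038 under NS and 0.048 under S with limma. The fits used here could thus miss smaller differences. With same-numbered libraries treated as pairs, as the data allow in 3 of these comparisons, the shares were 1.72% in NS shoots, 4.47% in NS roots and 1.61% in S roots, still without *NR* and *NiR*. Whether the response to S differed between the genotypes was tested as an interaction. The interaction of *NR* was -0.25 in shoots (interval -0.67 to 0.16) and -0.32 in roots (-1.36 to 0.72), and that of *NiR* was -0.28 (-0.71 to 0.15) and 0.25 (-0.52 to 1.02). Neither gene passed the test in either tissue (adjusted p of 1.00), beside 0.216% of all genes in shoots and 0% in roots. In roots, 0 of 17283 genes passed with limma, 752 had an unadjusted p under 0.05, and 30 passed when same-numbered libraries were treated as pairs, with neither *NR* nor *NiR* among them.

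**Figure D2:**
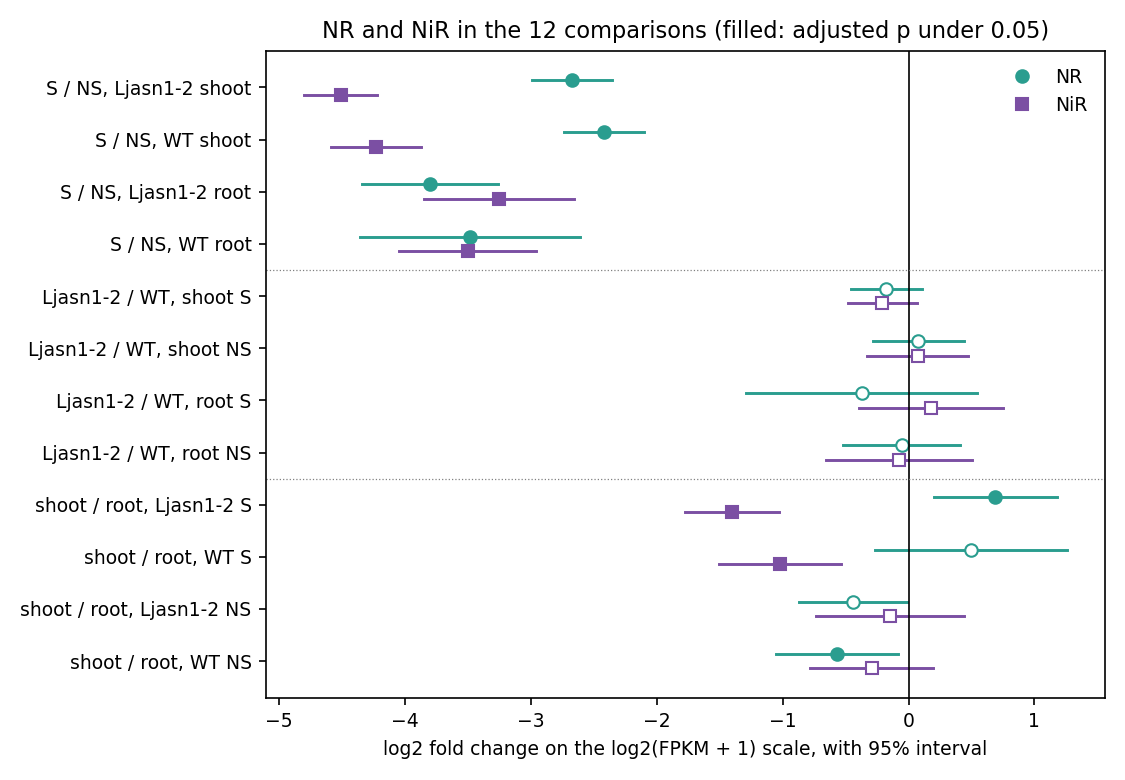
Log2 fold changes of *NR* (circles) and *NiR* (squares) on the log2(FPKM + 1) scale in the 12 comparisons, with 95% intervals from limma. Filled symbols passed an adjusted p of 0.05. All 8 values of S against NS lie between -4.51 and -2.42, and none of the 8 values of *Ljasn1-2* against WT passed.

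Ordered by group mean, the 4 NS groups came before the 4 S groups for both genes, without overlap between the lowest NS and the highest S group. For *NR* the order was WT roots, *Ljasn1-2* roots, *Ljasn1-2* shoots and WT shoots under NS, followed by WT shoots, *Ljasn1-2* shoots, WT roots and *Ljasn1-2* roots under S. The genotypes of a tissue and condition overlapped, as did shoots with WT roots under S, while NS roots lay above NS shoots without overlap. For *NiR* the order was WT roots, *Ljasn1-2* roots, *Ljasn1-2* shoots and WT shoots under NS, followed by *Ljasn1-2* roots, WT roots, WT shoots and *Ljasn1-2* shoots under S. Neighbouring groups of *NiR* overlapped except at the step from NS to S and at the step from S roots to S shoots.

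In S plants *NiR* was lower in shoots than in roots. Its log2 fold change of shoots against roots was -1.41 ± 0.16 in *Ljasn1-2* (adjusted p = 8.3e-05) and -1.02 ± 0.21 in WT (adjusted p = 0.0027). *NR* under S was 0.69 ± 0.21 in *Ljasn1-2* (adjusted p = 0.023) and 0.50 ± 0.33 in WT (adjusted p = 0.24). The WT value rested on single libraries of the S roots, with 0.05 without replicate 3 (adjusted p = 0.77) and 0.81 without replicate 2 (adjusted p = 0.04996). In NS plants *NR* was -0.44 ± 0.19 in *Ljasn1-2* (adjusted p = 0.080) and -0.57 ± 0.21 in WT (adjusted p = 0.0497), and *NiR* was -0.15 ± 0.26 and -0.29 ± 0.21 (adjusted p of 0.67 and 0.29). Most genes tested differed between the tissues, namely 54.5% in *Ljasn1-2* and 55.1% in WT under S, and 52.7% in *Ljasn1-2* and 52.5% in WT under NS, so a call in this comparison sets no gene apart.

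These values depended on how shoots and roots were scaled to each other. With equal totals of FPKM the median of all genes moved from close to 0 to between -0.43 and -0.35, and genes lower in shoots made up 67.0% to 71.9% of the calls in place of 49.7% to 50.05%. With them *NR* in NS plants was -0.81 in *Ljasn1-2* (adjusted p = 0.0011) and -1.04 in WT (adjusted p = 0.0043), and *NR* in S plants of *Ljasn1-2* was 0.34 (adjusted p = 0.29). *NiR* in NS plants then passed as well, at -0.52 in *Ljasn1-2* (adjusted p = 0.025) and -0.76 in WT (adjusted p = 0.0041). As first scaled, the call of *NR* in NS plants of WT was lost without any one of the 6 libraries (adjusted p of 0.065 to 0.19). The call of *NR* in S plants of *Ljasn1-2* was lost without replicate 1 or 2 of the shoots (adjusted p of 0.10 and 0.0785) or replicate 1 of the roots (0.054). Relative to the median of all genes, *NR* in S plants was 0.75 in *Ljasn1-2* and 0.54 in WT as first scaled and 0.71 and 0.49 with equal totals, and *NiR* was -1.35 and -0.98 as first scaled and -1.39 and -1.02 with equal totals.

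In *Ljasn1-2* the fall in S against NS plants differed between the tissues, in opposite directions for the 2 genes. The interaction of condition and tissue was 1.13 ± 0.27 for *NR* (adjusted p = 0.0088), whose fall was smaller in shoots than in roots. It was -1.26 ± 0.29 for *NiR* (adjusted p = 0.0063), whose fall was larger in shoots. In WT the values had the same signs, 1.06 ± 0.43 for *NR* (adjusted p = 0.11) and -0.73 ± 0.29 for *NiR* (adjusted p = 0.10), and did not pass. The calls in *Ljasn1-2* held in every alternative, with adjusted p of at most 0.028. Of all genes tested, 24.8% passed this interaction in *Ljasn1-2* and 19.1% in WT. In WT, *NR* passed without replicate 2 of the S roots (1.38, adjusted p = 0.032) and *NiR* without replicate 3 of the S roots (-0.96, adjusted p = 0.010).

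The ratio of *NR* to *NiR* within a library does not depend on the scaling of libraries. It was chosen after the values were seen, and the p-values given for it do not allow for that choice. In S shoots the ratio was 2.54, 2.39 and 2.27 in *Ljasn1-2* and 2.46, 2.44 and 2.12 in WT. In NS shoots it was 0.628, 0.620 and 0.682 in *Ljasn1-2* and 0.620, 0.639 and 0.667 in WT. *NR* thus exceeded *NiR* in all 6 S shoot libraries and was below it in all 6 NS shoot libraries. With this separation a permutation test of the conditions in shoots could only return its smallest p. The mean log2 ratio was 1.88 higher in S than in NS shoots (exact permutation test within genotype, two-sided p = 0.0050, the smallest its 400 arrangements allow; adjusted p = 0.015 over 6 comparisons).

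In roots the ratio was 0.355, 0.567 and 0.721 in S roots of *Ljasn1-2* and 0.814, 1.01 and 0.571 in S roots of WT. In NS roots it was 0.692, 0.737 and 0.963 in *Ljasn1-2* and 0.636, 0.726 and 1.01 in WT, so that the conditions overlapped. The log2 ratio in roots differed by -0.29 between S and NS (exact permutation p = 0.26, adjusted 0.35) and by -0.27 between *Ljasn1-2* and WT (exact p = 0.29, adjusted 0.35). Shoots exceeded roots by 1.89 under S (exact p = 0.0050, adjusted 0.015) and were 0.29 below roots under NS on the log2 scale (exact p = 0.020, adjusted 0.040). In shoots the genotypes differed by 0.02 (exact p = 0.69, adjusted 0.69). Replicates agreed more closely in shoots, where the SD of the log2 ratio was 0.05 to 0.12, than in roots, where it was 0.25 to 0.52.

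**Figure D3:**
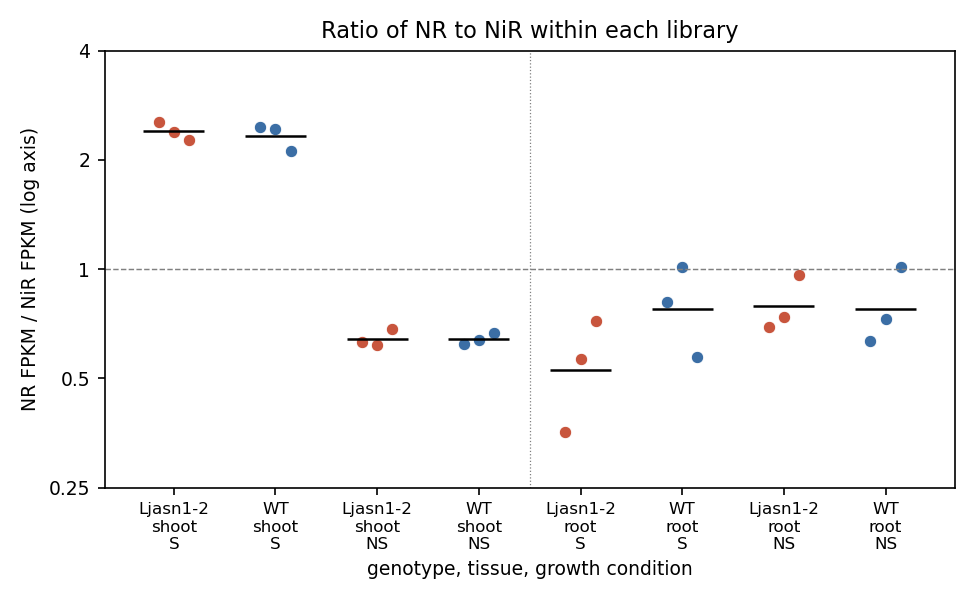
Ratio of *NR* to *NiR* FPKM in every library on a log axis, by genotype, tissue and growth condition. Red points are *Ljasn1-2*, blue points WT, in the order of replicates 1 to 3, and lines are geometric means (n = 3). The 6 S shoot libraries lie between 2.12 and 2.54, and all other libraries lie between 0.355 and 1.01.

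Over all 24 libraries *NR* and *NiR* correlated with Pearson r of 0.92 on the log2(FPKM + 1) scale, and within the 12 shoot and the 12 root libraries with r of 0.998 and 0.980. These correlations describe libraries that share tissue and condition. After subtraction of group means, the deviations of both genes still had r of 0.61 over the 24 libraries, 0.88 in shoots and 0.57 in roots, where libraries also share depth and scaling.

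*NiR* was most like LotjaGi3g1v0125200, described as the uroporphyrinogen III methyltransferase UPM1, with r of 0.98 over 24 libraries among 18747 genes. In Arabidopsis this enzyme makes the precursor of siroheme, the cofactor of nitrite reductase. It averaged 4.35 ± 0.98 FPKM in *Ljasn1-2* and 3.94 ± 0.54 FPKM in WT shoots under S, against 62.6 ± 2.5 FPKM in *Ljasn1-2* and 50.3 ± 9.4 FPKM in WT shoots under NS. In roots it averaged 14.6 ± 2.4 and 12.9 ± 1.9 FPKM under S in *Ljasn1-2* and WT, against 69.8 ± 25.4 and 63.6 ± 7.6 FPKM under NS. Under S its shoot libraries, at most 5.47 FPKM, lay below its root libraries, at least 10.9 FPKM, as those of *NiR* did. Next came genes described as bHLH041 (LotjaGi6g1v0230900, a putative transcription factor, r of 0.97), chalcone synthase 4 (LotjaGi2g1v0447000, an enzyme of flavonoid synthesis, 0.93) and an undescribed gene (LotjaGi2g1v0334300, 0.93), and the fifth was *NR*.

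*NR* was most like LotjaGi1g1v0623400, described as CLC-b, with r of 0.96, a family of anion channels and exchangers that move chloride and nitrate across the vacuolar membrane in Arabidopsis. The CLC-b gene averaged 1.34 ± 0.17 FPKM in *Ljasn1-2* and 1.25 ± 0.20 FPKM in WT shoots under S, against 6.39 ± 0.68 and 4.51 ± 0.24 FPKM under NS. In roots it averaged 0.573 ± 0.202 and 0.637 ± 0.105 FPKM under S, against 7.15 ± 2.34 and 6.14 ± 2.07 FPKM under NS. By group mean this gene was lowest in S roots, as *NR* was, though S root and S shoot libraries of WT overlapped for *NR*. The others were an undescribed gene (LotjaGi3g1v0172900, r of 0.95), a disease resistance protein (LotjaGi1g1v0654700, 0.94), bHLH041 (0.94) and a probable glycosyltransferase (LotjaGi1g1v0682100, 0.93), and *NiR* ranked 8.

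Over the 12 root libraries alone the order was different. For *NiR* it began with LotjaGi4g1v0227700, an ADP-ribose and CDP-alcohol diphosphatase (r of 0.996), a class-10 pathogenesis-related protein (LotjaGi6g1v0254700, 0.995), the receptor-like kinase CRLK1 (LotjaGi3g1v0233500, 0.994) and the abscisic acid receptor PYL4 (LotjaGi6g1v0079900, 0.994). The fifth was LotjaGi6g1v0271600, a ferredoxin-NADP reductase of the root type (0.992), the enzyme that reduces ferredoxin in plastids without light. For *NR* the 5 were a heat shock cognate protein (LotjaGi1g1v0530700_LC, 0.992), a putative ribonuclease H (LotjaGi2g1v0374800_LC, 0.989), an undescribed gene (LotjaGi4g1v0460600, 0.984), a long chain acyl-CoA synthetase (LotjaGi2g1v0441000, 0.983) and CRLK1 (0.983). Among these root libraries *NiR* ranked 15 for *NR*, and *NR* ranked 60 for *NiR*.

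**Figure D4:**
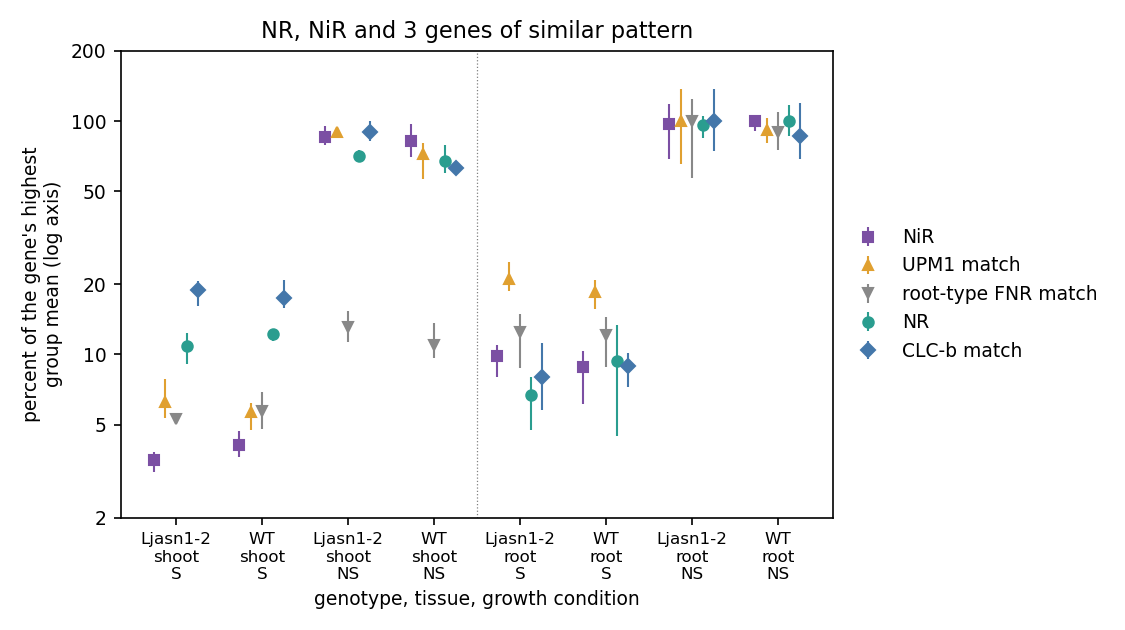
Group means of *NR*, *NiR* and 3 genes of similar pattern (the UPM1, CLC-b and root-type ferredoxin-NADP reductase matches), each as percent of its own highest group mean, on a log axis. Bars run from the lowest to the highest of 3 libraries. By group mean *NiR* and the UPM1 match are lowest in S shoots, and *NR* and the CLC-b match are lowest in S roots. For *NR*, S roots and S shoots of WT overlap.

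Of the genes that supply electrons, *NiR* depends on ferredoxin and therefore, in roots, on ferredoxin-NADP reductase and the oxidative pentose phosphate pathway. Of 14 genes of this list, 13 were tested in roots, where 1 rose and 3 fell in *Ljasn1-2* and 2 rose and 3 fell in WT, and 14 in shoots, where 3 fell in either genotype. Over all genes 27.9% and 24.1% changed in roots and 11.9% and 6.18% in shoots of *Ljasn1-2* and WT, the shares against which the counts of this and the following lists stand. Treating same-numbered libraries as pairs, which the data allow in roots of both genotypes and in WT shoots, raised these shares to 51.9% and 48.1% in roots and 23.1% in WT shoots, and in this list gave 3 rises and 5 falls in roots of *Ljasn1-2*, 3 and 4 in those of WT and 1 and 3 in WT shoots. The median log2 fold change of S against NS was -0.15 in roots of *Ljasn1-2* and 0.01 in those of WT, and -0.15 and -0.05 in shoots, beside 0.01, 0.01, 0.04 and 0.03 over all genes. The same 3 genes fell in all 4 comparisons and made up all the falls. LotjaGi6g1v0271600, a ferredoxin-NADP reductase of the root type, averaged 65.9 ± 17.3 FPKM in S and 529 ± 197 FPKM in NS roots of *Ljasn1-2* (log2 fold change -2.94, adjusted p = 0.00090). In roots of WT it averaged 63.8 ± 15.4 and 475 ± 93 FPKM (-2.89, adjusted p = 0.00019). In shoots it fell by 1.26 in *Ljasn1-2* and by 0.92 in WT. Another root-type match of the list, LotjaGi6g1v0272900, was not among these falls.

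The other genes of this list that fell encode dehydrogenases of the oxidative pentose phosphate pathway in plastids. The chloroplastic glucose-6-phosphate 1-dehydrogenase 2 gene LotjaGi1g1v0531700 averaged 34.6 ± 6.1 FPKM in S and 118 ± 9.3 FPKM in NS roots of WT (-1.75), and fell by 1.72 in roots of *Ljasn1-2*, by 1.59 in its shoots and by 1.41 in WT shoots. The chloroplastic 6-phosphogluconate dehydrogenase gene LotjaGi4g1v0432400 averaged 72.6 ± 3.1 FPKM in S and 220 ± 12.6 FPKM in NS roots of WT (-1.59), and fell by 1.27, 0.75 and 0.67 in *Ljasn1-2* roots, *Ljasn1-2* shoots and WT shoots. Among the genes that rose in WT roots was the leaf-type ferredoxin-NADP reductase LotjaGi4g1v0128500, with 8.53 FPKM in S and 4.67 FPKM in NS roots (0.74, adjusted p = 0.041) and 665 and 551 FPKM in S and NS shoots of WT (adjusted p = 0.38). With equal totals 5 and 6 genes fell in roots and shoots of *Ljasn1-2*, and 4 and 3 in those of WT.

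Siroheme synthesis was represented in the list by 1 gene, the ferrochelatase LotjaGi2g1v0243400 of its last step. It gave 0.71 and 0.66 in roots of *Ljasn1-2* and WT and 0.27 and -0.00 in shoots, and passed in none, though it rose in roots of both genotypes when same-numbered libraries were treated as pairs. The UPM1 match given above was not caught by the words of this list. Sulfite reductase, the related siroheme enzyme of sulfur assimilation (LotjaGi3g1v0537300), rose in roots of *Ljasn1-2* (0.90, adjusted p = 0.0064) and of WT (0.55, adjusted p = 0.031), and the call in WT was lost with equal totals (adjusted p = 0.20). In WT shoots it was 0.23 (adjusted p = 0.28), and it passed there as a rise with the pairs.

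*NR* depends on the molybdenum cofactor. Of 14 genes of molybdate transport and cofactor synthesis, 11 were tested in roots, where 3 rose and 1 fell in *Ljasn1-2* (beside 27.9% of all genes changed) and 5 rose and 1 fell in WT (24.1%). In shoots 12 were tested, of which 1 rose and 1 fell in *Ljasn1-2* (11.9%) and 2 rose and 1 fell in WT (6.18%). With the pairs, 4 rose and 1 fell in roots of *Ljasn1-2*, 6 rose and 3 fell in those of WT, and 3 rose and 1 fell in WT shoots. The medians were 0.35 in roots of *Ljasn1-2* and 0.36 in those of WT, and -0.05 and 0.03 in shoots. Without the pairs, the gene that fell was in each case LotjaGi1g1v0059300, described as CNX1, which inserts molybdenum into the cofactor. Another CNX1 match of the list, LotjaGi1g1v0059400, was thus not among the falls. LotjaGi1g1v0059300 averaged 3.75 ± 1.11 FPKM in S and 15.3 ± 2.1 FPKM in NS roots of *Ljasn1-2* (-1.80, adjusted p = 0.00059). In roots of WT it averaged 3.71 ± 0.55 and 13.4 ± 4.1 FPKM (-1.58, adjusted p = 0.0018). In shoots it fell by 0.97 in *Ljasn1-2* and by 1.00 in WT.

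The largest rises in that list were of molybdate transporters. LotjaGi3g1v0116800, a molybdate transporter 1 match, averaged 17.8 ± 3.9 FPKM in S and 1.04 ± 0.44 FPKM in NS roots of WT (3.20, adjusted p = 5.3e-05), and rose by 2.79 in roots of *Ljasn1-2*. A second such match, LotjaGi1g1v0390400, averaged 9.37 ± 1.81 and 3.09 ± 1.72 FPKM in roots of WT (1.41) and rose in the other 3 comparisons as well. The molybdate transporter 2 match LotjaGi3g1v0360400 rose in WT shoots (0.66, adjusted p = 0.035), a call lost with equal totals (0.17). With equal totals, 2 genes of the list rose in WT roots in place of 5.

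The words used for other molybdenum enzymes matched 16 genes, but 8 of them are described as GLOX or GLOX1, proteins of the galactose oxidase type that are not known to carry molybdenum. Of 10 tested in roots, 3 of them GLOX matches, 2 rose and 1 fell in either genotype, beside 27.9% of all genes changed in *Ljasn1-2* and 24.1% in WT. The rises were not GLOX matches, and the fall was one in both genotypes. Of 11 tested in shoots, 4 of them GLOX matches, 3 rose in *Ljasn1-2* (11.9% of all genes changed), none of these GLOX, and 0 changed in WT (6.18%). With equal totals 1 rose in shoots of *Ljasn1-2* and 1 in those of WT. With the pairs, 4 rose and 2 fell in roots of *Ljasn1-2*, 3 rose and 1 fell in those of WT, and 3 rose in WT shoots. The medians over all tested matches were -0.13 and 0.12 in roots of *Ljasn1-2* and WT and 0.15 and 0.13 in shoots. Sulfite oxidase (LotjaGi2g1v0089300) averaged 29.2 ± 9.4 FPKM in S and 11.8 ± 1.5 FPKM in NS roots of WT (1.19, adjusted p = 0.012). An abscisic-aldehyde oxidase (LotjaGi1g1v0059700) rose by 0.70 in the same roots, which was lost with equal totals (adjusted p = 0.069). The GLOX match that fell was LotjaGi3g1v0222900 (-0.78 in *Ljasn1-2* and -0.62 in WT).

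Nitrate transport was the largest list, with 85 genes described as nitrate transporters or as members of the NRT1/PTR family, which also holds carriers of peptides and hormones. Of 40 tested in roots, 14 rose and 10 fell in *Ljasn1-2* (27.9% of all genes changed), and 12 rose and 8 fell in WT (24.1%). Of 40 tested in shoots, 9 rose and 3 fell in *Ljasn1-2* (11.9%), and 13 rose and 3 fell in WT (6.18%). With the pairs, 15 rose and 12 fell in roots of *Ljasn1-2*, 15 rose and 11 fell in those of WT, and 19 rose and 6 fell in WT shoots. With equal totals 2 rose and 4 fell in shoots of *Ljasn1-2*, and 6 rose and 4 fell in those of WT. The medians were -0.09 and -0.03 in roots and 0.25 and 0.27 in shoots of *Ljasn1-2* and WT. LotjaGi2g1v0424800, a match of the nitrate transporter and sensor NRT1/PTR family 6.3 of Arabidopsis, averaged 0.182 ± 0.107 FPKM in S and 77.7 ± 22.0 FPKM in NS roots of *Ljasn1-2* (-6.02) and 0.320 ± 0.108 and 58.8 ± 2.5 FPKM in those of WT (-5.50). LotjaGi3g1v0487600, a high affinity nitrate transporter match, averaged 38.5 and 409 FPKM in S and NS roots of *Ljasn1-2* (-3.27) and 32.4 and 612 FPKM in those of WT (-4.27), and was named after its values were seen.

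Rises of the same list in roots came from other members. LotjaGi1g1v0705800, a family 5.3 match, averaged 117 ± 42 FPKM in S and 0.328 ± 0.139 FPKM in NS roots of WT (6.41), and LotjaGi1g1v0123500, a family 8.1 match and thus of a peptide transporter group, averaged 46.1 ± 8.6 and 0.00258 ± 0.00448 FPKM (5.54). Both also rose in roots of *Ljasn1-2* (6.24 and 5.70), and like leghemoglobin they were near 0 in NS roots. In shoots the changes were small. LotjaGi2g1v0425100, another match of family 6.3, rose there in *Ljasn1-2*, with 9.33 ± 1.72 FPKM in S and 4.17 ± 0.66 FPKM in NS shoots (0.99, adjusted p = 0.0026). LotjaGi3g1v0222800, a family 5.7 match, rose by 1.30 in *Ljasn1-2* and by 1.2003 in WT, LotjaGi4g1v0001600, a family 4.3 match, rose by 0.93 in WT, and LotjaGi6g1v0082900, a family 5.1 match, fell by 1.28 in *Ljasn1-2* and by 1.09 in WT.

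Among 6 genes described as NLP proteins, a family that in Arabidopsis binds nitrate-responsive promoters and in *L. japonicus* includes the nodule regulator NIN, 3 of 6 tested rose in S roots of either genotype (27.9% of all genes changed in *Ljasn1-2* and 24.1% in WT) and 0 of 5 tested changed in shoots (11.9% and 6.18%). With the pairs, 3 rose and 2 fell in roots of *Ljasn1-2*, 3 rose in those of WT and 1 rose in WT shoots. The medians were 0.08 and 0.25 in roots and 0.23 and 0.18 in shoots of *Ljasn1-2* and WT. LotjaGi1g1v0001500, an NLP2 match, averaged 43.3 ± 8.0 FPKM in S and 0.621 ± 0.131 FPKM in NS roots of WT (4.76, adjusted p = 1.8e-06). LotjaGi3g1v0501000, an NLP8 match, averaged 63.0 ± 2.5 and 1.79 ± 0.75 FPKM (4.55, adjusted p = 4.5e-06). Another NLP8 match, LotjaGi3g1v0030100, rose by 0.50 in WT, which was lost with equal totals (adjusted p = 0.19). The NLP7 match LotjaGi5g1v0299300, a nitrate sensor in Arabidopsis, averaged 12.9 FPKM in S and 12.7 FPKM in NS roots of WT (adjusted p = 1.00).

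Downstream of *NiR*, the ammonium it makes is assimilated by glutamine synthetase and glutamate synthase. Of 6 genes, 5 were tested in roots and 6 in shoots. With the pairs, 2 rose and 1 fell in roots of *Ljasn1-2*, in roots of WT and in WT shoots. Without them, in roots 0 changed in *Ljasn1-2* (27.9% of all genes) and 1 fell in WT (24.1%), the ferredoxin-dependent glutamate synthase LotjaGi1g1v0664300, with 37.3 ± 6.0 FPKM in S and 81.2 ± 27.8 FPKM in NS roots (-1.06, adjusted p = 0.020). In shoots the NADH-dependent glutamate synthase LotjaGi1g1v0224700 fell by 0.86 in *Ljasn1-2* and by 0.64 in WT, and the call in WT was lost with equal totals (adjusted p = 0.070). A glutamine synthetase of the nodule type (LotjaGi1g1v0095400) rose by 0.51 in shoots of *Ljasn1-2*, also lost with equal totals (adjusted p = 0.21). Thus 1 rose and 1 fell in shoots of *Ljasn1-2* (11.9% of all genes changed) and 1 fell in those of WT (6.18%). The plastid glutamine synthetase LotjaGi6g1v0300700 averaged 1043 and 1057 FPKM in S and NS shoots of WT and 248 and 244 FPKM in roots. The medians were 0.08 and -0.02 in roots and 0.10 and 0.04 in shoots of *Ljasn1-2* and WT.

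None of the genes of these 8 lists passed between *Ljasn1-2* and WT in any tissue or condition. With same-numbered libraries treated as pairs, 4 of 34 nitrate transport genes and 1 of 10 tested genes of the list of other molybdenum enzymes passed in NS roots. In NS shoots 2 of 40 nitrate transport genes passed. Of all genes tested, 4.47% passed in NS roots and 1.72% in NS shoots with the pairs. *NR* and *NiR* did not pass there either.

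**Figure D5:**
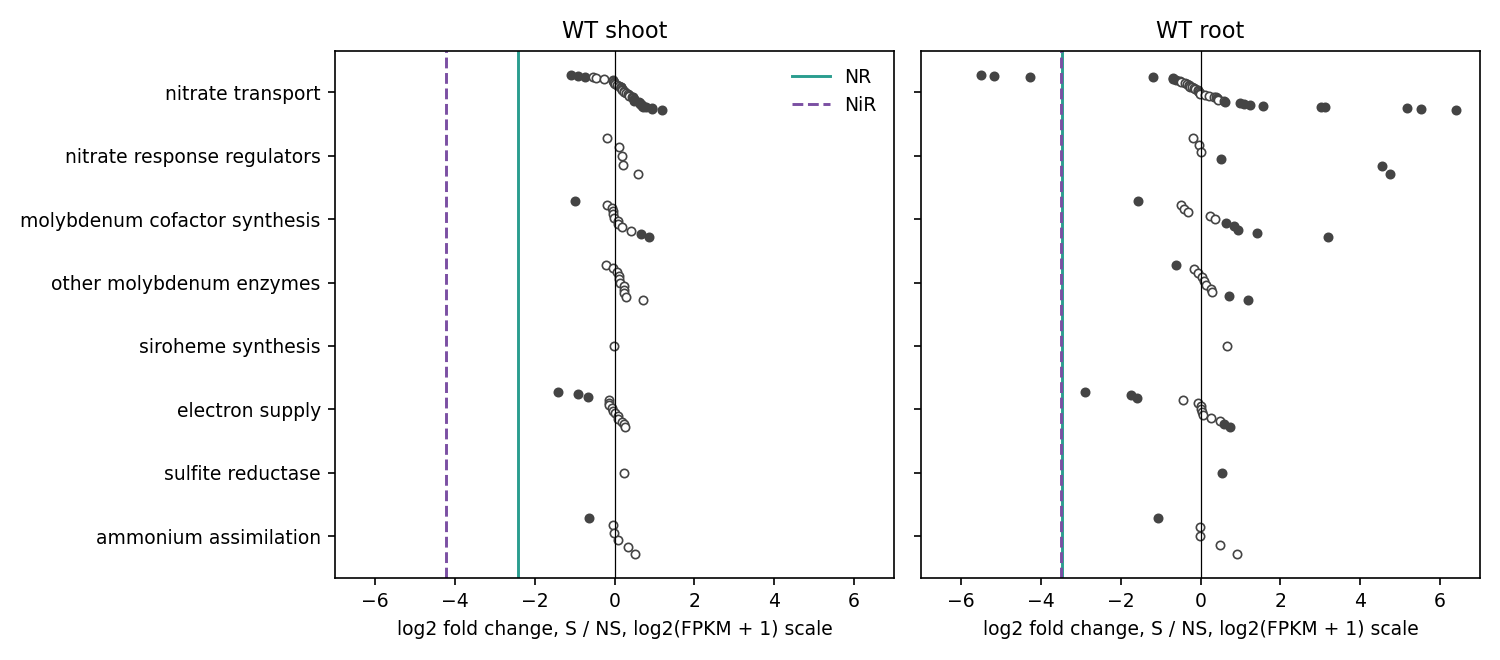
Log2 fold changes of S against NS on the log2(FPKM + 1) scale for the tested genes of the 8 lists around *NR* and *NiR*, in WT shoots (left) and WT roots (right). Filled points passed an adjusted p of 0.05, and vertical lines mark *NR* (solid, -2.42 and -3.49) and *NiR* (dashed, -4.23 and -3.50). The list of other molybdenum enzymes includes GLOX matches. In shoots every listed gene lies closer to 0 than *NR*, and in roots 3 nitrate transport genes lie below both.

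The neighbours of both genes on the chromosomes were also looked at, as a description. *NR* is separated from the next annotated genes by 5462 and 9032 bases, and neither of these 2 passed the filter on low values. Of the genes at the second place on either side, a gene of low confidence described as LINE-1 (LotjaGi1g1v0151800_LC, 28950 bases away) fell in shoots by 1.30 in *Ljasn1-2* and by 1.43 in WT and did not pass the filter in roots. The other, LotjaGi1g1v0152200_LC, lay between -0.19 and 0.22 in the 4 comparisons. *NiR* lies 19739 bases from a fucosyltransferase-like gene (LotjaGi4g1v0074500), which lay between -0.06 and 0.18, and 40014 bases from a gene that did not pass the filter.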

How the data were processed

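The deposited table holds FPKM of 30243 genes in 24 libraries, made by the authors, with the gene lengths they used. The submitters' notes name fastp, featureCounts 1.5.0-p3 and DESeq2 1.20.0, and the scaling behind FPKM is not given in the sources used here. Values of 1 or more were deposited without their decimal point. FPKM times length is a whole multiple of 1 read in each library, so 384363 values were restored to whole reads, by replicates and by row order; 0 failed, and 91 genes, none of them named, kept a second solution. Both this step and the limma fits were also run on simulated data, with outcomes not given here. For the restoring step, simulated replicates were drawn around a shared group mean, an agreement that the placing of decimal points also assumes.

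limma 3.58.1 (R 4.3.3) with an intensity trend was run on log2(FPKM + 1), for genes of at least 1 FPKM in at least 3 libraries of a fit, with Benjamini-Hochberg adjustment over all genes tested, a threshold of 0.05 and two-sided tests. Pairwise fits used 6 libraries and interactions 12. The ratio was computed with Python 3.11.15 and numpy 2.4.6. The test was kept although the table needed restoring. Alternatives were a pseudocount of 0.1, no filter, equal totals, voom weights on restored reads, all 24 libraries, a replicate block and each library left out, and, added after the data were seen, reads per 1e6 reads and kilobase and totals without leghemoglobin.

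Same-numbered libraries deviated together (every r above 0.1) in 6 of the 12 comparisons: r was 0.45 to 0.84 for *Ljasn1-2* against WT in roots and in NS shoots, and 0.39 to 0.76 for S against NS in roots and in WT shoots. The pairing there rests on the data, since the labels give only numbers.

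Genes were assigned to lists by words in the protein name, with NLP and glutamate synthase words matched as whole words. Named are *NR*, *NiR*, *LjASN1*, the 5 genes of highest r with each, and up to 3 called genes of largest change per list in S against NS of WT; other listed or neighbouring genes given with values were chosen after their values were seen. The members and lists were chosen with earlier results of these data known. The medians and counts of lists describe them and are no test.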

Additional observations from a re-analysis of the deposited data

Results flagged for a closer look

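The fall in S against NS plants differed between shoots and roots in *Ljasn1-2*, by the test of the interaction itself. For *NR* the interaction was 1.13 on the log2 scale, with 33.4 FPKM in S and 217 FPKM in NS shoots, and 20.6 FPKM in S and 295 FPKM in NS roots. For *NiR* it was -1.26, with 13.9 and 338 FPKM in shoots, and 38.6 and 382 FPKM in roots. Leghemoglobin was 2.15% to 3.04% of the FPKM sum in S roots of *Ljasn1-2*, and its part in these values was not tested. Of all genes tested, 24.8% passed this interaction in *Ljasn1-2*. In WT the values had the same signs, 1.06 for *NR* and -0.73 for *NiR*, and did not pass. Whether the interaction itself differs between *Ljasn1-2* and WT was not tested.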

How the results depend on the processing

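*NR* and *NiR* passed in all 4 comparisons of S against NS, and neither passed between the genotypes, under every alternative. The count of these 2 genes that passed changed in comparisons between tissues. For shoots against roots in NS plants of WT (1 in the fit reported), 0 passed with a pseudocount of 0.1, without the filter, with the replicate block, with all 24 libraries and without any library (0 to 0), and 2 with equal totals, voom or reads per 1e6 reads and kilobase. In NS plants of *Ljasn1-2* (0), 2 passed with equal totals, 1 with voom and 1 with reads per 1e6 reads and kilobase, and 0 to 1 with a library left out. In S plants, 1 passed in *Ljasn1-2* under each of these 3 scalings in place of 2 and 1 to 2 with a library left out, and 1 to 2 in WT. The share of all genes that passed moved with these scalings too. In NS plants it was 63.7% to 66.7% in WT in place of 52.5%, and 57.8% to 60.4% in *Ljasn1-2* in place of 52.7%. In S plants it was 62.4% to 64.5% in *Ljasn1-2* in place of 54.5%, and 65.1% to 66.7% in WT in place of 55.1%. For the interaction of condition and tissue in WT (0), 1 passed with all 24 libraries, *NR* (1.06, adjusted p = 0.049), and 0 to 1 with a library left out. Of all genes, 3827 of 18747 passed it with all 24 libraries, beside 3469 of 18163 in the fit reported.

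Signs turned with a library left out only where nothing passed. *Ljasn1-2* against WT ranged from -0.0015 to 0.20 for *NR* and from -0.032 to 0.20 for *NiR* in NS shoots, from -0.15 to 0.066 and from -0.24 to 0.15 in NS roots, and from -0.059 to 0.31 for *NiR* in S roots. Shoots against roots ranged from -0.37 to 0.018 for *NiR* in NS plants of *Ljasn1-2*.

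The replicate block left *NR* and *NiR* on the same side of the threshold in the 6 comparisons where libraries pair, with *NiR* at -3.50 in roots of WT (adjusted p = 1.5e-05), but moved the counts of all genes called. It called 278 genes in place of 70 for *Ljasn1-2* against WT in NS shoots, 723 in place of 7 in NS roots, 262 in place of 5 in S roots, and for S against NS 3722 in place of 996 in WT shoots, 7959 in place of 3993 in WT roots and 8583 in place of 4608 in *Ljasn1-2* roots. Where only a number is shared, it called 62 in place of 17 in S shoots and 2814 in place of 1918 in *Ljasn1-2* shoots.

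These comparisons are limited by 3 libraries a group, 1 insertion line and harvests that may differ in age. Scaling moved the median of all genes by -0.40 to -0.23 between tissues and by up to -0.16 between S and NS.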
